A study of Mus musculus with 6 samples.

Results

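The nuclear-encoded subunits of the mitochondrial respiratory chain and of ATP synthase were examined in fetal male germ cells lacking *Fancg*, a component of the Fanconi anemia DNA repair pathway. Members were chosen by name alone: every array row whose mouse symbol begins with *Nduf* and a subunit letter and number (complex I), *Sdha* to *Sdhd* (complex II), *Uqcr* (complex III), *Cox4* to *Cox8* (complex IV) or *Atp5* (complex V), with pseudogenes left out. This gave 75 genes of 23837 named genes: 35 in complex I, 4 in complex II, 7 in complex III, 17 in complex IV and 12 in complex V. The rule follows the symbol, so *Ndufa4*, which is now placed in complex IV, was counted with complex I. A further 12 subunit symbols of the rule, *Cox7c* and *Atp5g1* among them, and the subunits encoded by mitochondrial DNA were not analysed here.

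Primordial germ cells (PGCs) of E13.5 male gonads were sorted by GFP fluorescence, in 3 samples labelled Fancg-/- and 3 labelled WT (*Fancg*+/+). Both genotypes were on an FVB background and carried the OG2 transgene, in which the *Pou5f1* distal enhancer drives GFP in germ cells. Each sample held 10000 cells pooled from at least 5 embryos and was hybridised to 1 Affymetrix Mouse Gene 2.0 ST array of 1 colour, so the replicates are separate pools. Values are log2 signals, in which a difference of 1 is a doubling.

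The respiratory chain passes electrons from NADH (complex I) and succinate (complex II) through ubiquinone to complex III, and by cytochrome c to complex IV, where oxygen is reduced. Complexes I, III and IV pump protons across the inner mitochondrial membrane, and complex V, the ATP synthase, uses the return of the protons to make ATP. Germ cells shift their balance of glycolysis and oxidative phosphorylation during fetal development.

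The arrays were alike in scale, with medians of 4.68 to 4.75 and pairwise correlations of 0.989 to 0.994 across genes. The *Fancg* row read 6.38, 6.65 and 6.87 in the samples labelled Fancg-/-, against 6.07, 5.95 and 6.37 in WT (log2 difference 0.51, SE 0.16, limma adjusted p = 0.27). The sources used here do not place its probes relative to the disrupted part of the gene, so the row does not check the labels, and the arrays are called by their labels throughout. Germ cell markers were at a mean log2 level of 8.98 to 9.02 in Fancg-/- and 9.01 to 9.12 in WT over 12 genes, of which 5 were above 0 and 7 below in log2 difference. That mean covers wider differences of single genes, with *Nanos2* at -1.90, *Tfap2c* at 0.56 and *Nanos3* at 0.44, and 2 of the 12 were higher and 1 lower at an unadjusted limma p below 0.05. Among somatic markers, the 9 Sertoli genes averaged 6.80 to 7.28 in Fancg-/- and 7.30 to 7.79 in WT, with 9 of 9 lower, and the 5 measured fetal Leydig genes averaged 4.0 to 4.72 in Fancg-/- and 5.72 to 6.35 in WT, with 5 of 5 lower. Of 8 interstitial genes 7 were lower (5.35 to 5.62 in Fancg-/-, 5.45 to 5.99 in WT), and 7 of 7 endothelial genes were higher (5.32 to 5.79 in Fancg-/-, 5.06 to 5.51 in WT). The endothelial differences ran from 0.07 for *Kdr* to 0.86 for *Tek*, and 3 of the 7 were higher at an unadjusted limma p below 0.05 (background 6.23%). Signals were uneven, with *Pecam1*, among these 3, at 9.92 in Fancg-/- and 9.54 in WT, and *Emcn* at 3.42 and 3.31. The germ cell marker *Kit* was at 9.47 in Fancg-/- and 9.26 in WT, so the *Pecam1* signal cannot be assigned to endothelial cells alone. In such bulk samples, fewer cells of a type and less RNA per cell cannot be told apart.

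Promoter sequences are shown for 3 members picked as examples. *Atp5md* had the highest difference of the members. *Uqcr11*, of complex III, was above WT in every array, and *Sdha*, the succinate-oxidising subunit, was below WT in every array. The sequences are the 250 bases before the RefSeq start (GRCm38.p6), on the minus strand, from chr19:47090648-47090897, chr10:80406822-80407071 and chr13:74350241-74350490. Capitals mark the letters CCGGAAG (the core recognised by ETS factors such as GABP) and GCGCANGCG (the core of NRF1 sites). These factors are known regulators of respiratory chain genes.
Atp5md: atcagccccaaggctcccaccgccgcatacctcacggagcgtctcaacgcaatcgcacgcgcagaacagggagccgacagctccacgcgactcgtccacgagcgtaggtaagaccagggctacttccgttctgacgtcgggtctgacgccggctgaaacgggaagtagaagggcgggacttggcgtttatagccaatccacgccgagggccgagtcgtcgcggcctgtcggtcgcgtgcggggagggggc
Uqcr11: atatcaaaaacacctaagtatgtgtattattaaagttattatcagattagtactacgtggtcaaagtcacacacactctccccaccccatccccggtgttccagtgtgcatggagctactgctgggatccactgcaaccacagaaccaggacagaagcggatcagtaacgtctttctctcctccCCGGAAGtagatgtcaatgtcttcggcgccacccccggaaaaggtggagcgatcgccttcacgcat
Sdha: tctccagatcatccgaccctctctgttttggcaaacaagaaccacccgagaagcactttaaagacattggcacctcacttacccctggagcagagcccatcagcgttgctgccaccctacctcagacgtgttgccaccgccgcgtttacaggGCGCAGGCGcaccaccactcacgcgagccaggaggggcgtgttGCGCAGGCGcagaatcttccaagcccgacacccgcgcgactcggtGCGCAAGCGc
The *Sdha* window held the NRF1 letters 3 times, starting 98, 55 and 10 bases before the start, and the *Uqcr11* window held the ETS letters once, at 66 bases. The *Atp5md* stretch shown held neither. The RefSeq windows reach 50 bases further, and there the *Atp5md* window held the ETS letters once and the *Uqcr11* window the NRF1 letters once. The full windows of *Cox5b* and *Ndufb2*, whose differences are given below, held neither set of letters and are not shown.

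These full windows were found for 60 of the 75 members (65 windows of 32851). Of 7 letter patterns searched on both strands, the NRF1 letters GCGCANGCG were in 24.6% of member windows, against 6.25% of all windows. CCGGAAG was in 23.1%, against 8.86%, and the YY1 core AAGATGGCG was in 9.2%, against 1.4%. Shorter forms that overlap these, GCGCATGC and AGATGGC, were in 12.3% and 15.4% of member windows, against 2.71% and 6.4% of all. The TATA box TATAAA was in 12.3%, against 13.62%, and the GC box GGGCGG was in 41.5%, against 35.66%. The 15 genes with CCGGAAG had a median log2 difference of 0.12, with 11 above 0. The 45 without it had 0.04, with 29 above 0. A link between the letters and the difference was not tested. For GCGCANGCG the medians were 0.08 over 15 genes and 0.04 over 45, again with 11 and 29 above 0. The TATA box, which was not more frequent in members, gave 0.08 over 7 genes and 0.05 over 53. AAGATGGCG gave 0.06 over 6 genes and 0.05 over 54, and the GC box 0.06 over 26 and 0.06 over 34. The shorter forms GCGCATGC and AGATGGC gave 0.08 and 0.07 with the letters, and 0.05 and 0.04 without. A match of letters is a description of the window and not of binding, and the patterns put in capitals were chosen after these shares were seen.

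No member passed the test. With limma over all genes, 0 of 75 members had an adjusted p below 0.05, and the same held for 0 of 23837 genes (0%). Without adjustment, 3 members were higher in Fancg-/- at p below 0.05 (*Atp5md*, *Ndufb2* and *Cox5b*) and 0 were lower, against 6.23% of all genes higher and 6.17% lower.

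The differences were small. Of the 75 log2 differences 48 were above 0 (64%, against 52.9% of all genes), with a median of 0.055, against 0.011 over all genes. When each array was shifted to the same median, 56 were above 0, against 58.3% of all genes. That shift moved the median to 0.076 over the members and 0.032 over all genes, by about the same amount. The 95% interval of the difference lay within 1.5-fold in either direction for 70 members (93.3%), against 82.2% of all genes, so for those 70 a difference beyond 1.5-fold lay outside the interval. The exceptions were *Atp5md*, *Cox5b*, *Cox7b*, *Cox7b2* and *Ndufa4l2*. The members were measured with a median SE of 0.09, against 0.11 over all genes, and 72 of them had a mean signal above the median gene.

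**Figure D1:**
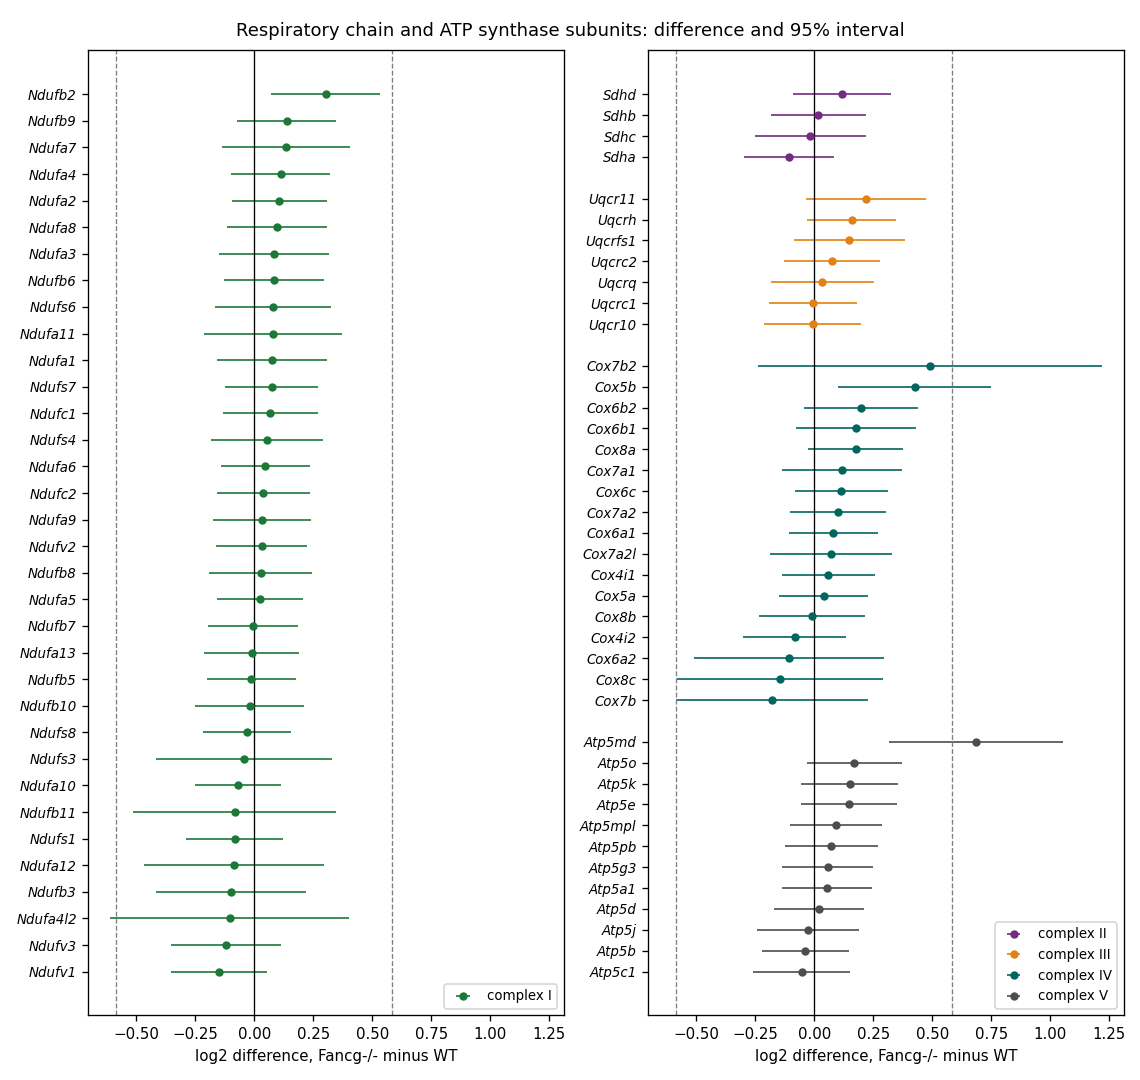
Log2 difference (Fancg-/- minus WT, x axis) with its 95% interval for 74 of the 75 members, coloured by complex; n = 3 arrays per genotype, and dashed lines mark 1.5-fold. Points cluster near 0, and *Atp5md* (0.69), *Cox5b* (0.43) and *Ndufb2* (0.30) are the members whose interval leaves out 0.

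In 12 members (16%) every Fancg-/- array was above every WT array, against 9.45% of all genes, and in 4 (5.33%) every Fancg-/- array was below, against 8.45%. The 12 were *Ndufb2* in complex I, *Uqcr11* and *Uqcrh* in complex III, *Cox5b*, *Cox6a1*, *Cox6c* and *Cox8a* in complex IV, and *Atp5e*, *Atp5k*, *Atp5md*, *Atp5mpl* and *Atp5o* in complex V. The 4 were *Ndufv1* and *Ndufa10* in complex I, *Sdha* in complex II and *Atp5b* in complex V. Among genes above the median signal, which include 72 of the members, the background was larger, at 11.8% above and 12.1% below. The members' counts there were also 12 and 4. Without WT replicate 1 the higher count was 27 (background 17.2%), and without Fancg-/- replicate 1 the counts were 22 higher (background 16.3%) and 7 lower (background 14.5%). An exact permutation test of 3 against 3 cannot go below 0.1.

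Complex V held the member with the highest difference. *Atp5md*, which encodes a small membrane subunit known for stabilising ATP synthase dimers, read 10.14, 10.25 and 10.53 in Fancg-/-, against 9.92, 9.49 and 9.44 in WT. The lowest Fancg-/- array thus lay above the highest WT array, which was WT replicate 1. The log2 difference was 0.69 (SE 0.16, 95% interval 0.32 to 1.05), a 1.61-fold higher signal, with a limma adjusted p of 0.19. Leaving out any 1 array gave 0.57 to 0.84. With the mean of Sertoli and interstitial markers as a covariate the difference was 0.37 (limma adjusted p = 0.77). Most of these markers were themselves lower in Fancg-/-, so the covariate and the genotype cannot be fully told apart. The value is therefore not a difference corrected for somatic cells, and the same limit holds wherever this covariate is used below.

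The other small or stalk subunits of complex V that are named here differed less. *Atp5o*, the stalk protein that joins the catalytic head to the membrane part, read 10.65, 10.62 and 10.52 in Fancg-/- and 10.49, 10.36 and 10.44 in WT (log2 difference 0.17, SE 0.09). *Atp5e*, the epsilon subunit of the head, read 12.0015, 12.0326 and 12.0731 in Fancg-/- and 11.9835, 11.8656 and 11.8119 in WT (0.15, SE 0.09). *Atp5k*, the membrane subunit e, read 11.63, 11.59 and 11.68 in Fancg-/- and 11.57, 11.50 and 11.39 in WT (0.15, SE 0.09). In each of the 3 the groups did not overlap, but the gap between them was narrow, and adjusted p-values in the limma fit were 0.49 to 0.55. The small membrane subunit *Atp5mpl* was at 0.09 (SE 0.08). Over the 3 subunits of the stalk, *Atp5o* among them, 2 were above 0 and 1 below, with a median of 0.07.

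The catalytic core of ATP synthase stayed close to WT. *Atp5b*, the beta subunit that carries the catalytic sites, read 11.60, 11.64 and 11.64 in Fancg-/- and 11.66, 11.69 and 11.65 in WT (-0.04, SE 0.08). Its groups did not overlap, with a gap of under 0.01 between the nearest arrays. *Atp5a1*, the alpha subunit, differed by 0.06, *Atp5c1*, the rotating gamma subunit, by -0.05, and *Atp5g3*, a gene for the c ring, by 0.06. Over the 5 head subunits, *Atp5e* among them, 3 were above 0, with a median of 0.02.

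**Figure D2:**
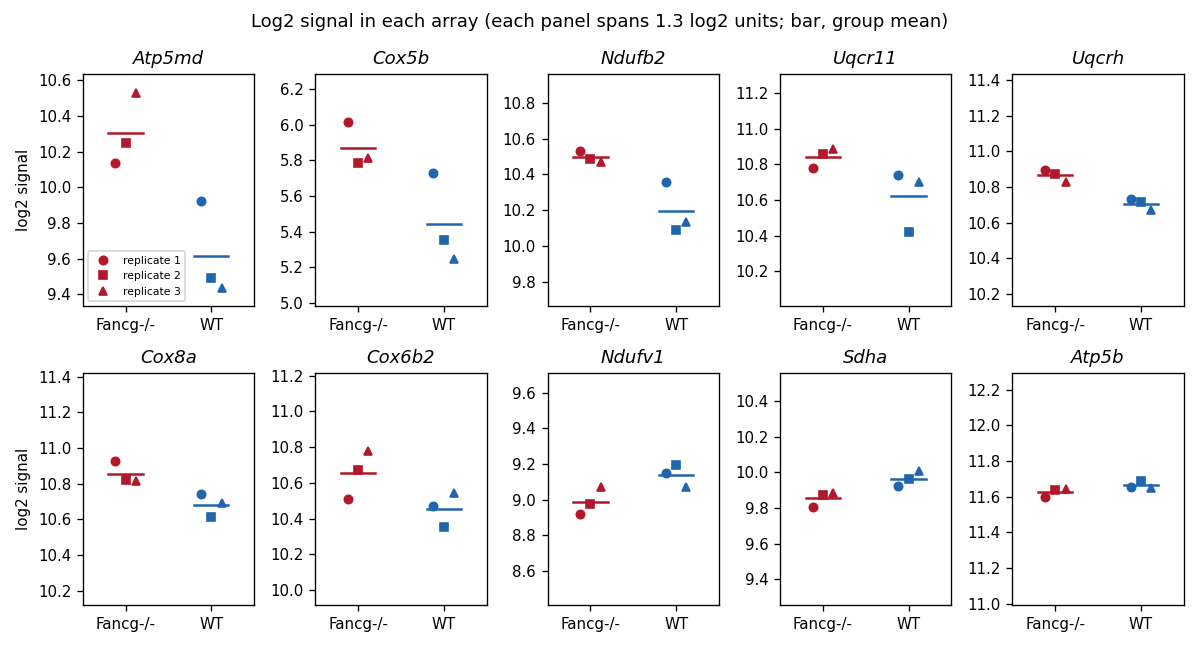
Log2 signal (y axis) of 10 members in each of the 3 Fancg-/- arrays (red) and 3 WT arrays (blue); symbols give the replicate, bars the group means, and every panel spans the same range. *Atp5md* shows the widest gap between the genotypes, while *Cox6b2* overlaps and *Atp5b* is nearly level.

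Complex IV had 12 of 17 members above 0, with a median of 0.08. *Cox5b*, a zinc-binding subunit on the matrix side of cytochrome c oxidase, read 6.01, 5.78 and 5.81 in Fancg-/- and 5.73, 5.35 and 5.25 in WT. WT replicate 1 again lay nearest to the Fancg-/- arrays. The difference was 0.43 (SE 0.14, 95% interval 0.10 to 0.75), a 1.34-fold higher signal, with a limma adjusted p of 0.30. Leaving out any 1 array gave 0.33 to 0.57, and the covariate of somatic markers gave 0.20. *Cox8a*, the ubiquitous form of the smallest subunits, read 10.93, 10.82 and 10.82 in Fancg-/- and 10.74, 10.61 and 10.69 in WT (0.17, SE 0.09). *Cox7a2l*, known for joining complexes III and IV into supercomplexes, was at 0.07 (SE 0.11). Its mean signal of 3.82 was below that of the median gene, so a small difference says little about it. *Cox4i1* and *Cox5a*, which bind to the catalytic subunit early in assembly, differed by only 0.06 and 0.04. The small subunits *Cox6c*, *Cox7a2* and *Cox6a1* were at 0.11, 0.10 and 0.08.

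Several complex IV subunits have a second gene used mainly in 1 tissue, and these had differences of both signs. *Cox6b2*, the testis form of *Cox6b1*, read 10.51, 10.67 and 10.78 in Fancg-/- and 10.47, 10.35 and 10.55 in WT (0.20, SE 0.10). *Cox6b1* differed by a like amount (0.18, SE 0.11), and both overlapped between the genotypes. *Cox7b2*, another testis form, read 4.16, 4.88 and 5.02 in Fancg-/- and 4.28, 4.72 and 3.58 in WT. That spread gave a difference of 0.49 with an SE of 0.31, and the lowest Fancg-/- array lay below 2 WT arrays. Its partner *Cox7b* was at -0.18 (SE 0.18) and the testis form *Cox8c* at -0.14 (SE 0.19), while the muscle forms *Cox6a2*, *Cox7a1* and *Cox8b* were at -0.11, 0.12 and -0.01. The mean signals of *Cox7b2* (4.44) and *Cox8b* (3.66) were below that of the median gene. Over the 8 tissue-restricted forms, which include *Cox4i2* (-0.08) and *Ndufa4l2* (-0.10), 3 were above 0 and 5 below, with a median of -0.05.

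Complex III had 5 of 7 members above 0, with a median of 0.07. *Uqcr11*, the small subunit whose promoter is shown above, read 10.78, 10.86 and 10.89 in Fancg-/- and 10.74, 10.42 and 10.70 in WT (0.22, SE 0.11, limma adjusted p = 0.47). *Uqcrh*, the hinge protein that helps cytochrome c1 meet cytochrome c, read 10.89, 10.87 and 10.83 in Fancg-/- and 10.73, 10.72 and 10.67 in WT (0.16, SE 0.08, limma adjusted p = 0.48). For *Uqcrh* the spread within each genotype was tight, with SDs of 0.03 in Fancg-/- and 0.03 in WT. *Uqcrfs1*, the Rieske iron-sulfur protein, was at 0.15 (SE 0.10) with overlapping groups. The core proteins *Uqcrc2* and *Uqcrc1* were at 0.07 and -0.01, and the accessory subunit *Uqcrq* was at 0.03.

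In complex II, *Sdha*, the flavoprotein that oxidises succinate, read 9.81, 9.87 and 9.88 in Fancg-/- and 9.92, 9.96 and 10.01 in WT. All Fancg-/- arrays lay below all WT arrays, by a difference of -0.11 (SE 0.08, limma adjusted p = 0.64). The iron-sulfur subunit *Sdhb* (0.02) and the membrane anchor *Sdhc* (-0.02) were near 0, and the other anchor, *Sdhd*, was at 0.12 (SE 0.09). The 4 subunits of this complex had a median of 0.0004.

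Complex I, the largest group, had 20 of 35 members above 0, with a median of 0.031. Leaving out 1 array gave medians of 0.008 to 0.043, the lowest without Fancg-/- replicate 2. *Ndufb2*, an accessory subunit of the membrane arm, read 10.53, 10.48 and 10.47 in Fancg-/- and 10.36, 10.09 and 10.13 in WT. The Fancg-/- arrays were nearly level, and WT replicate 1 was the WT array closest to them. The difference was 0.30 (SE 0.10, 95% interval 0.07 to 0.53), a 1.23-fold higher signal, with a limma adjusted p of 0.30. It ranged from 0.25 to 0.38 when 1 array was left out and was 0.16 with the covariate of somatic markers. The accessory subunits *Ndufb9* and *Ndufa2* were at 0.14 and 0.11 (SE 0.09 each), and *Ndufv3*, an accessory subunit of the NADH-oxidising module, was at -0.12 (SE 0.10), all with overlapping groups. *Ndufa4* was at 0.11 (SE 0.09).

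The 7 core subunits, which carry the flavin and the iron-sulfur clusters or the ubiquinone site, had mostly negative differences. Of these 7, 2 were above 0 and 5 below (median -0.04), whereas 18 of the 28 subunits outside the core were above 0 (median 0.04). *Ndufv1*, the flavoprotein where NADH is oxidised, read 8.92, 8.98 and 9.07 in Fancg-/- and 9.15, 9.20 and 9.07 in WT (-0.15, SE 0.09, limma adjusted p = 0.55). Its highest Fancg-/- array and lowest WT array differed by under 0.01. *Ndufs1*, the largest iron-sulfur subunit, was at -0.08 and *Ndufs7*, which carries the last iron-sulfur cluster, at 0.07. *Ndufa10*, an accessory subunit singled out after its values were seen, read 10.07, 10.05 and 10.08 in Fancg-/- and 10.14, 10.15 and 10.11 in WT (-0.07, SE 0.08). The difference between core and accessory subunits was not tested.

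By array, the mean deviation of the 75 members from each gene's own average was 0.016, 0.035 and 0.033 in Fancg-/- and 0.024, -0.052 and -0.056 in WT. WT replicate 1 therefore lay among the Fancg-/- arrays, and the other WT arrays lay below. For complex V the deviations were 0.046, 0.057 and 0.063 in Fancg-/- and -0.003, -0.083 and -0.080 in WT. There, and in complex III (0.023, 0.054 and 0.056 in Fancg-/-, 0.012, -0.089 and -0.056 in WT), the genotypes did not overlap. In complexes I, II and IV the genotypes overlapped. For the 7 core subunits of complex I alone they did not, with Fancg-/- lower, at -0.016, -0.021 and -0.019, against 0.050, -0.0004 and 0.007 in WT. None of these separations was tested.

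**Figure D3:**
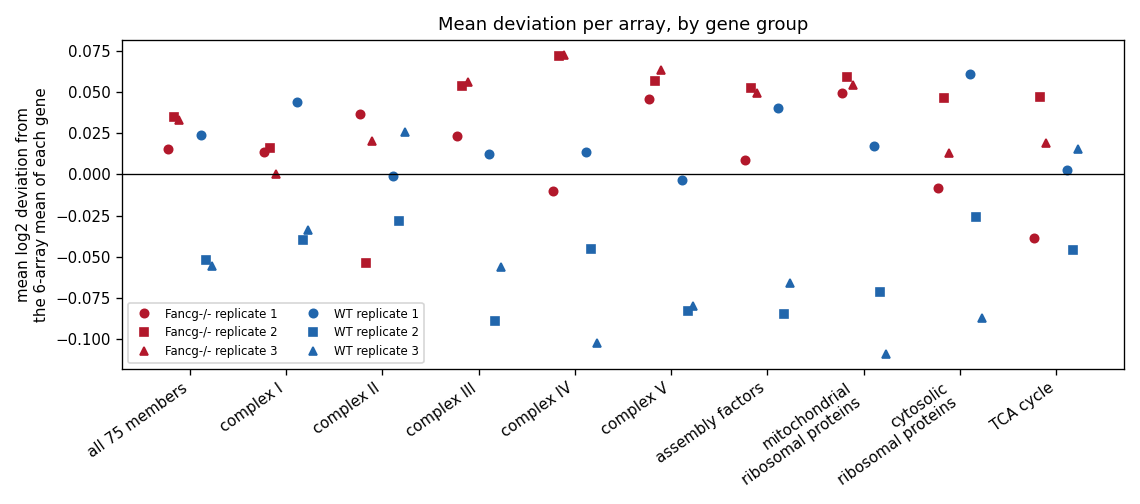
Mean log2 deviation from each gene's 6-array mean (y axis), for all members, each complex and 4 other gene lists; red symbols are the 3 Fancg-/- arrays and blue the 3 WT arrays. WT replicate 1 (blue circle) sits among the Fancg-/- arrays over all 75 members, at 0.024, and apart from the other WT arrays.

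Other genes of mitochondrial energy metabolism were read from lists. None of their genes passed the limma test after adjustment. Among 52 assembly factors, the proteins that build the complexes, 33 were above 0 (median 0.08). Without adjustment 11 were higher (21.2%, background 6.23%) and 3 lower (background 6.17%). *Uqcc1*, an assembly factor of complex III, read 6.06, 5.94 and 6.12 in Fancg-/- and 5.73, 5.13 and 5.47 in WT (0.59, SE 0.15, adjusted p = 0.21 by limma). *Sdhaf2*, which helps insert flavin into *Sdha*, read 7.62, 7.66 and 7.76 in Fancg-/- and 7.45, 7.28 and 7.09 in WT (0.40, SE 0.11, adjusted p = 0.23 by limma). Both differences exceed that of any subunit of the same complex.

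The 76 mitochondrial ribosomal proteins, which translate the subunits encoded by mitochondrial DNA, had the highest median of the lists (0.12), with 63 above 0. In 24 of them (31.6%, background 9.45%) every Fancg-/- array was above every WT array, and in 0 every array was below (background 8.45%). Without adjustment 7 were higher (background 6.23%) and 1 lower (background 6.17%). *Mrpl10* read 7.94, 8.10 and 8.02 in Fancg-/- and 7.69, 7.73 and 7.73 in WT (0.30, SE 0.08), and *Mrpl12* differed by 0.34 (SE 0.11). The 62 cytosolic ribosomal proteins were taken by symbol, which also brings in genes such as *Rps19bp1* and *Rpl7l1*. They had a median of 0.02, with 34 above 0 and differences from -0.63 to 0.64. The smallest unadjusted limma p-values were those of *Rpl27a* (-0.50) and *Rpl10l* (0.56). Electron carriers and coenzyme Q synthesis (19 genes, median 0.03), the TCA cycle (18 genes, 0.03) and cristae shape genes (13 genes, 0.03) had 0 genes past the unadjusted limma threshold in either direction. Among them, *Coq2* and *Coq4* of coenzyme Q synthesis were at -0.34 and 0.26, *Idh3a* and *Suclg1* of the TCA cycle at -0.18 and 0.19, and *Oma1* and *Phb*, which act on cristae shape, at 0.21 and 0.12. The 19 nuclear regulators of mitochondrial genes had a median of -0.01, with 8 above 0 and 11 below. Their differences ran from -0.39 to 0.29. The smallest unadjusted limma p-values there were those of *Gabpb1*, a subunit of the ETS factor GABP (0.29), and *Esrra*, a nuclear receptor of mitochondrial genes (0.23).

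Glycolysis held wider differences than any complex. *Hk1*, a hexokinase that binds the mitochondrial outer membrane, read 6.68, 6.78 and 6.99 in Fancg-/- and 6.06, 5.82 and 5.55 in WT (log2 difference 1.01, SE 0.15, limma adjusted p = 0.14). *Pfkp*, the platelet-type phosphofructokinase, read 7.42, 7.71 and 7.82 in Fancg-/- and 7.18, 6.61 and 6.41 in WT (0.92, SE 0.20, limma adjusted p = 0.17). *Ldha*, which converts pyruvate to lactate and was singled out after its values were seen, read 6.97, 6.81 and 6.74 in Fancg-/- and 7.5, 7.20 and 7.21 in WT (-0.46, SE 0.12, limma adjusted p = 0.21). The genotypes did not overlap for any of these 3 genes. With the covariate of somatic markers the differences were 0.72 for *Hk1*, 0.39 for *Pfkp* and -0.62 for *Ldha*. Over the 20 glycolysis genes the median was 0.04, with 15 above 0. Without adjustment 3 were higher (background 6.23%) and 1 lower (background 6.17%). The median was 0.17 without Fancg-/- replicate 1, and 0.014 to 0.17 over all arrays left out in turn.

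**Figure D4:**
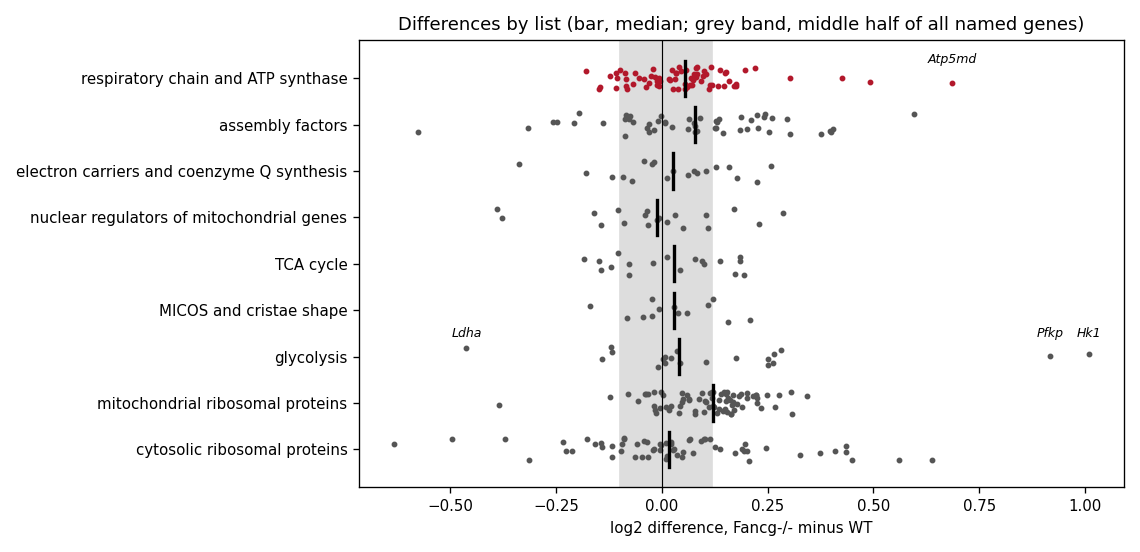
Log2 difference (Fancg-/- minus WT, x axis) of every gene in the members (red) and in 8 other lists (grey); bars are medians, and the grey band holds the middle 50% of all named genes, from -0.10 to 0.12. The median of the mitochondrial ribosomal proteins (0.12) is the farthest from 0, the members' median is 0.055, and *Hk1* and *Pfkp* lie farthest to the right.

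Settings of the fit moved the unadjusted counts. With a limma prior variance that follows intensity, 12 members were higher at p below 0.05 (16%, background 6.72%) and 0 lower. The lowest adjusted p of a member in that fit was 0.099, for *Atp5md*. This background covers genes of any signal, and none was read for bright genes alone. In the main fit restricted to genes above the median signal, 3 members were higher (background 8.9%) and 0 lower (background 9.15%). With the mean of Sertoli and interstitial markers as a covariate, 0 members were higher (background 3.73%) and 2 lower (background 3.41%), and the members' median was 0.017. The same covariate gave medians of 0.0015 over the assembly factors and 0.057 over the mitochondrial ribosomal proteins. As this covariate partly follows the genotype, these values do not separate the 2.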

How the data were processed

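RNA of the 6 sorted PGC samples was amplified, labelled and hybridised by the authors. They deposited RMA log2 signals, 1 row per gene; the submitters' processing notes also name Partek. For its version and the build, none is given in the sources used here. The table had 24479 rows. RefSeq (GRCm38.p6) named 23712 of them and the platform annotation covered 23281, so that 23837 had a name, and the other 642 were not tested. Fancg-/- and WT arrays were compared with limma 3.58.1 (lmFit and eBayes, R 4.3.3), two-sided, p-values being adjusted by Benjamini-Hochberg across the named genes and read at 0.05, after a check on simulated data. No values were filtered. The members, lists and tests were chosen with earlier results of these data known.

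Named genes are catalytic subunits, paralog families, up to 5 members per complex with the smallest p, the 5 highest and 5 lowest differences, and up to 2 genes per other list; 1 member named by this rule is not reported here. Germ cell and somatic marker lists were read the same way. Macrophage markers averaged 4.20 to 4.36 in Fancg-/- and 4.10 to 4.21 in WT, and erythroid markers 3.32 to 5.32 in Fancg-/- and 3.75 to 4.91 in WT. The alternatives were another test, other priors, weights, scalings and filters, a replicate block, a marker covariate and leaving out each array. The number of arrays limits the precision.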

Additional observations from a re-analysis of the deposited data

How the results depend on the processing

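Of 63 named genes 51 kept the direction of their difference in every alternative run, and 12 turned in at least 1. The causes were not tested. Among the 51 were *Atp5md*, *Cox5b*, *Ndufb2*, *Hk1* and *Pfkp*, whose groups do not overlap, so leaving out 1 array cannot turn them. The Student test, the intensity trend, the filters on signal and the replicate block leave the difference itself unchanged. Kept direction is therefore partly fixed in advance. The methods' Student test gave 5 members higher (5.33% of all genes) and 2 lower (4.77%) at unadjusted p below 0.05, and the intensity trend gave 12 higher (6.72%). With equal array medians 1 member had all Fancg-/- arrays below WT (6.96% of all genes), and *Cox8b* (0.013), *Sdhc* (0.0044) and *Uqcrc1* (0.016) turned, as did *Sdhb* (-0.0094) after quantile normalization. The covariate of Sertoli and interstitial markers gave 0 members higher (3.73% of all genes) and 2 lower (3.41%), a median of 0.017 over the members and -0.022 over complex I, and turned *Atp5c1* (0.065), *Cox6a2* (0.29), *Cox7a2* (-0.00062), *Cox8b* (0.089), *Sdhb* (-0.060), *Sdhc* (0.12), *Uqcrc1* (0.050), *Uqcrc2* (-0.031) and *Uqcrq* (-0.029).

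Leaving out 1 array at a time gave 0 to 3 called genes among all named genes (3 without WT replicate 1). Members higher at unadjusted p below 0.05 were 1 to 4 (1 without WT replicate 3), against 4.35% to 6.68% of all genes. Members with no overlap were 14 to 27 higher, against 13.6% to 17.2% of all genes, and 4 to 7 lower, against 12.2% to 14.5%, and the complex III median was 0.058 to 0.12. Among named members, the ranges that crossed 0 were -0.25 to 0.048 for *Cox6a2*, -0.32 to 0.0054 for *Cox7b*, -0.060 to 0.057 for *Cox8b*, -0.26 to 0.048 for *Cox8c*, -0.34 to 0.038 for *Ndufa4l2*, -0.0067 to 0.063 for *Sdhb*, -0.10 to 0.039 for *Sdhc*, -0.032 to 0.010 for *Uqcrc1* and -0.017 to 0.10 for *Uqcrq*. Medians whose range crossed 0 were those of complex II (-0.031 to 0.036), cytosolic ribosomal proteins (-0.015 to 0.046), electron carriers and coenzyme Q synthesis (-0.043 to 0.051) and cristae shape genes (-0.0087 to 0.062). The median over the members was 0.031 without WT replicate 2. Deviations of samples with the same replicate number had r = -0.14, -0.11 and 0.03, and those of unlike number had r from -0.05 to 0.14. With 3 arrays per genotype these values cannot tell whether the numbers pair the samples. With the replicate number as a block, 0 members were called, 0 genes were called and 2480 genes were below an unadjusted p of 0.05, against 2956 without it. No member was in the lowest 25% of genes, so leaving out dim members removed none.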

Other observations

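Pseudogene rows left out of the members were read as well. *Ndufs5-ps* had log2 signals of 7.84, 8.06 and 7.87 in Fancg-/- and 8.24, 7.76 and 7.83 in WT, which overlap. *Uqcrh-ps1* read 2.66, 2.97 and 2.80 in Fancg-/- and 3.07, 3.19 and 2.81 in WT, and *Atp5c1-ps* read 2.42, 2.49 and 2.42 in Fancg-/- and 2.47, 2.46 and 2.59 in WT.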
